A study of Rattus norvegicus with 4 samples.

Results

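The cytosolic ribosomal proteins are the protein components of the large and small subunits of the ribosome in the cytoplasm. Their genes were taken by annotated symbol: those that begin with Rpl or Rps and a digit, together with Rpsa, Rplp0, Rplp1 and Rplp2, and without the Rps6k kinases. The rule used no measured value. Among the 14218 genes of the array it found 50, of which 34 belong to the large and 16 to the small subunit. By kind, 42 encode standard subunits, 6 are paralogues and 2 are annotated as pseudogenes. Rplp1, Rplp2 and some standard subunits such as Rps14 and Rps19 are not among the 50, because no probe set lists them as its only annotated entry.

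The cells were ROE2, an immortalized oral epithelial line made from fetal tongue (18 days) of a Wistar rat with the temperature-sensitive SV40 large T-antigen transgene pSVtsA58ori(-)-2. Cultures spent 24 h at 33 °C, and RNA was then taken after 0 days (the control), 3 days, 6 days or 9 days at 37 °C, with 1 Affymetrix 3' expression array per day. All 4 groups carried the transgene and shared the same medium, with 2% fetal bovine serum, 1% ITES supplement and 10 ng/ml epidermal growth factor, and dishes precoated with collagen type I. All samples come from 1 line that holds the T-antigen gene, with no line without it among them, so temperature, time and T-antigen activity cannot be told apart. With 1 array per day there was no replicate, and no p-value, SD or SE can be given. Differences below describe these 4 arrays.

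Values are on the log2 scale, 1 per probe set, as deposited by the authors after RMA, which subtracts background, matches the distributions of the arrays and combines the probes of a set. Of all genes, 8802 (61.9%) reached a log2 value of 6 on at least 1 array, the floor used here. Gene differences were called by size, at 2-fold or more, which is 1 or more on the log2 scale. Median differences of all genes from day 0 were -0.05, -0.18 and -0.14 on days 3, 6 and 9, and hybridisation spike-ins were higher than on day 0 by a median of 0.14, 0.39 and 0.63. Of 7 epithelial markers, all were above the floor, with a summed level of 15.24, 15.25, 15.56 and 15.65 on days 0, 3, 6 and 9. On day 9, 4 of the 7 were above day 0, with Krt13 at 4.24 and the next, Tp63, at 0.41. The other 3, Krt5, Itga6 and Epcam, were below day 0. None of the 6 fibroblast markers or of the 2 measured endothelial markers exceeded the brightest bacterial control probe set on any array. Of 4 leukocyte markers, Ptprc and Cd3e did not exceed that control, and Cd14 and Cd68 did. The summed level of the 4 markers was 10.71, 9.86, 9.40 and 9.06 on days 0, 3, 6 and 9, most of it from Cd14. Cd14 and Cd68 went opposite ways. On days 3, 6 and 9 Cd14 was at -0.98, -1.48 and -1.86 against day 0, and Cd68 at 1.22, 0.95 and 0.86. The part of these markers in the results was not tested. Of 4 skeletal muscle markers only Des exceeded the control, and none reached the floor.

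Each ribosome carries a single copy of most of these proteins, and cells make them in matched amounts. In vertebrates their mRNAs usually begin with a 5' terminal oligopyrimidine (TOP) tract, a C at the first base followed by a run of C and T. Through this tract the kinase complex mTORC1 and the binding protein Larp1 set how much of the mRNA is translated, while the mRNA itself can stay in the cell untranslated. An expression array measures the mRNA and not its translation. Ribosome production is known to go with cell growth, and large T antigen drives proliferation in cells grown at the permissive temperature.

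RefSeq promoter windows of build GRCr8, which run from 250 bases before to 50 after the annotated start, were found for 43 of the 50 genes, 41 by gene ID and 2 by symbol. A TOP start was read as a C at the annotated first base followed by at least 4 pyrimidines. It was present in 12 of 43 members (27.9%), against 881 of 33469 windows of all genes (2.63%) and 198 of 7442 genes above the floor (2.66%). All 12 encode standard subunits, 12 of 37 (32.4%), and 0 of the 6 paralogues had such a start. Neither pseudogene was among the windows found. Among mitochondrial ribosomal proteins, a separate set that serves the ribosome inside mitochondria, 2 of 59 (3.39%) had one. The windows below span 15 bases before and 15 bases after the annotated start, and are shown because the tract is the sequence feature that most of this family is known for. Capitals mark the pyrimidine run that begins at the annotated start.

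Rpl19 (GRCr8, chr10:83519049-83519078, plus strand): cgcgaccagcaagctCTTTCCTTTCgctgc
Rpl37a (GRCr8, chr9:81748076-81748105, plus strand): gcatgcccgttgcgtCTCTTCCTCTTCggg
Rps15 (GRCr8, chr7:10068101-10068130, minus strand): cgctgacaccgcttcCTTTTCCCagcagcc
Rpl35a (GRCr8, chr11:81235007-81235036, minus strand): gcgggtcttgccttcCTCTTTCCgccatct
Rps3a (GRCr8, chr2:173827028-173827057, minus strand): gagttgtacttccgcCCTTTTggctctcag
Rplp0 (GRCr8, chr12:46718376-46718405, minus strand): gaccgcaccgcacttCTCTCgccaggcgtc

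The first windows come from both subunits: Rpl19, Rpl37a and Rpl35a belong to the large subunit and Rps15 and Rps3a to the small one, and Rplp0 anchors the stalk to which translation factors bind. The runs were 10, 12, 8, 8, 6 and 5 bases long in the order printed. The next 3 windows belong to paralogues above the floor and have no TOP start, so they hold no capitals.

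Rpl7l1 (GRCr8, chr9:21695703-21695732, plus strand): agctgcagatgcattgtgggaagcctttaa
Rpl26l1 (GRCr8, chr10:17029014-17029043, minus strand): aaatgtcatttccgggcctgcgcacacacc
Rps27l (GRCr8, chr8:76443643-76443672, plus strand): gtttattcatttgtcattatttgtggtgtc

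Annotated starts can lie a few bases from the start used in a given cell, and with a run allowed to begin within 10 bases the count was 29 of 43 members (67.4%), against 28.9% of all windows and 28.5% of genes above the floor. The motif CCGGAAG, which ETS factors bind, was found on either strand in 10 members (23.3%), against 8.75% of all windows and 20.6% of genes above the floor, so its share was near that of other measured genes. AAGATGGC, bound by YY1, was found on either strand in 4 members (9.3%), against 3.17% of all windows and 6.36% of genes above the floor. TATAAA was found on the gene's strand in 4 members (9.3%), against 8.8% of all windows and 4.04% of genes above the floor. CCGGAAG ends in the letters with which AAGATGGC begins, so matches of this pair can overlap, and TATAAA can share its last letters with the first letters of AAGATGGC. The median GC content of the windows was 56% in members, 51.7% in all windows and 61.3% in genes above the floor. A match describes the letters of a window and not a site in use.

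The family was among the brightest on every array. Of the 50 genes, 43 reached the floor, 29 of the large and 14 of the small subunit, made up of 40 standard subunits, 3 paralogues and 0 pseudogenes. The median level of these 43 was 13.53, 13.57, 13.47 and 13.37 on days 0, 3, 6 and 9, where the brightest probe set of an array read 14.1 to 14.2. On each array 38 of the 43 (88.4%) were among the brightest 5% of genes above the floor, which holds 441 genes. Brightness depends on each probe set's own binding, so the order of members by level is not an order of mRNA abundance.

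**Figure D1:**
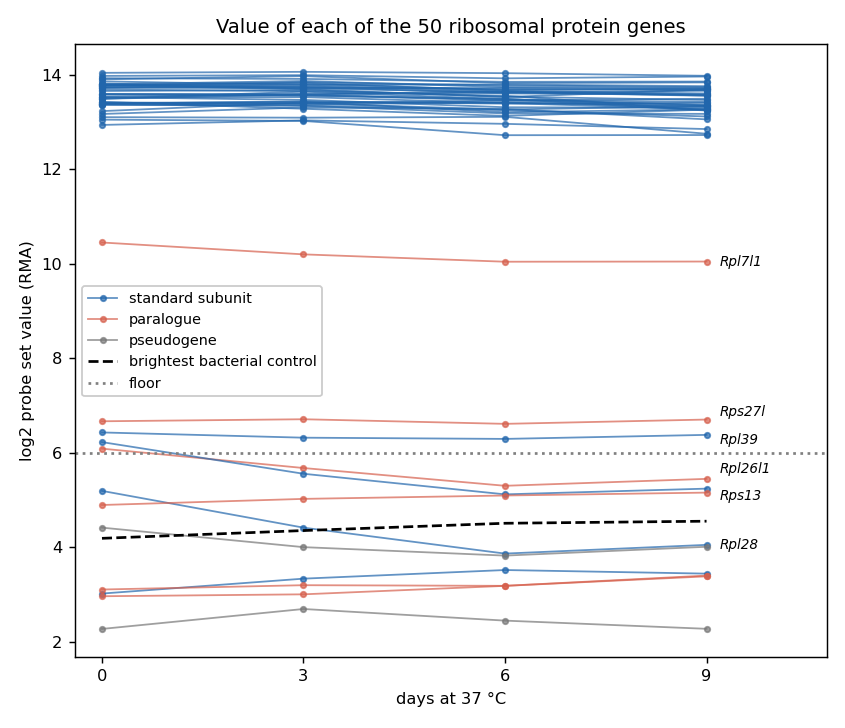
Log2 RMA value (vertical axis) of each of the 50 ribosomal protein genes against days at 37 °C (horizontal axis), 1 line per gene, with the brightest bacterial control dashed and the floor of 6 dotted. 38 genes lie above 12 on every array, Rpl7l1 lies alone near 10, and the remaining 11 lie below 7.

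Only 5 of the 43 members above the floor read under 13 on all 4 arrays: Rpl7l1, Rps27l, Rpl39, Rps13 and Rpl26l1. Rps13 and Rpl26l1 stood just above the floor, with highest values of 6.23 and 6.09, and just outside it were Rpl28 and Rps4y2, at 5.20 and 5.16. Rps13 and Rpl26l1 passed the floor through the day 0 array alone, so their later values had to be lower. The 7 genes below the floor were Rpl28, Rpl30, Rpl37-ps2, Rpl39l1, Rpl3l, Rps4x-ps1 and Rps4y2.

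The level of these genes differed little between the 4 days. Between its highest and lowest array a member moved by a median of 0.18 on the log2 scale, against 0.58 for all genes above the floor. The 4 values lay within 0.5 of each other for 41 of 43 members (95.3%), against 41.5% of all genes. Because bright probe sets can move less, the 36 members with a mean of 13 or more were set beside the 45 other genes of that brightness. Their median range was 0.16, against 0.32 for the other bright genes, and all 36 members stayed within 0.5, against 33 of the 45 (73.3%). The bright cre spike-ins, 4 probe sets at 12.81 to 13.61 on day 9 and 12.40 to 13.36 on day 0, read 0.25 to 0.41 higher on day 9. Compression at the bright end of the scale was not tested.

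**Figure D2:**
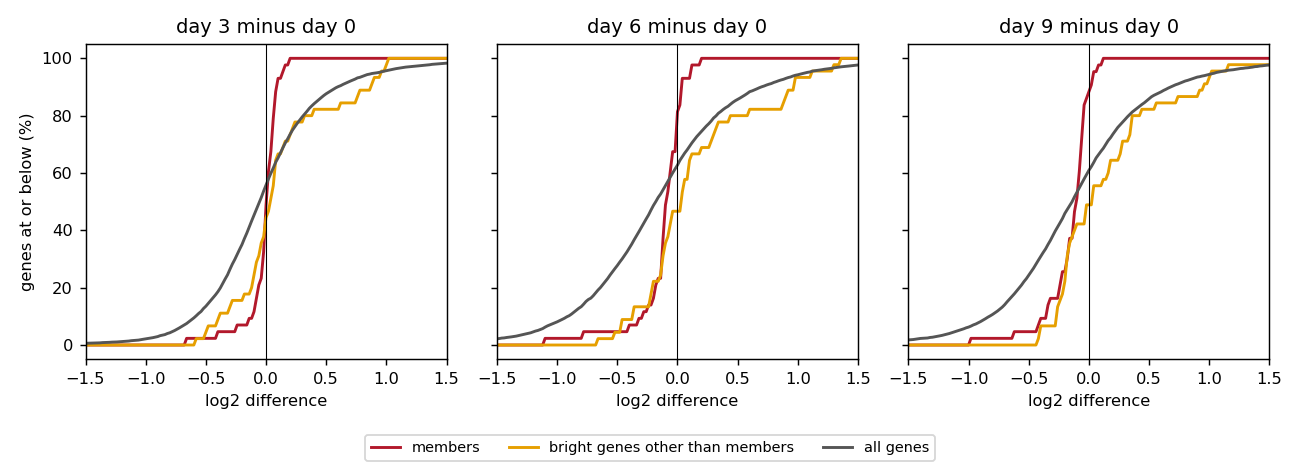
Cumulative share of genes (vertical axis, percent) at or below each log2 difference from day 0 (horizontal axis, cropped at -1.5 and 1.5) for the 43 members, the 45 other bright genes and all 8802 genes above the floor, 1 panel per later day. The members' curve is the steepest in each panel, with 40, 37 and 35 of 43 members within 0.25 of day 0 on days 3, 6 and 9.

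Against day 0, the median difference of the 43 members was 0.0004 on day 3, -0.09 on day 6 and -0.10 on day 9. The middle of the set, from the lower to the upper quartile, ran from -0.04 to 0.05 on day 3, from -0.13 to -0.01 on day 6 and from -0.21 to -0.05 on day 9. Differences were below 0 for 21 members on day 3, 35 on day 6 and 38 on day 9, which are 48.8%, 81.4% and 88.4% of 43, against 55.8%, 62.7% and 61.0% of all genes. The shift of the family was smaller than that of the median gene, and members lay above the median of all genes by 0.05, 0.09 and 0.04. Its sign therefore depends on the scaling. With each array centred on the median gene the members' medians on days 6 and 9 were 0.07 and 0.0059, and 23.3% and 48.8% of members were below 0. With centring on the spike-ins they were -0.48 and -0.74, and every member was below 0. That centring uses the median over 18 spike-in probe sets, 0.63 on day 9. The bright cre spike-ins rose by 0.25 to 0.41 only, so it lowers bright members by more than these moved. RMA removes a shift common to most genes, so the total amount of these mRNAs per cell was not measured. In a bulk culture, fewer cells of a type and less RNA per cell cannot be told apart. All 3 differences share the day 0 array.

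No member was 2-fold or more higher than on day 0, where 4.31%, 5.74% and 5.57% of all genes were on days 3, 6 and 9. Lower by that rule were 0 members on day 3, 1 on day 6 and 0 on day 9, where 2.15%, 8.08% and 6.25% of all genes were. The 1 member was Rps13. At 1.5-fold, 0 members were higher on any later day, where 10.2%, 12.1% and 12% of all genes were. At that size 1 member was lower on day 3, 2 on day 6 and 2 on day 9, where 10.0%, 22.9% and 19.6% of all genes were. These were Rps13 on all 3 days and Rpl26l1 on days 6 and 9, the pair that passed the floor on day 0 alone. Among the 38 members with a mean of 12 or more, none differed by 1.5-fold in either direction on any day.

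**Figure D3:**
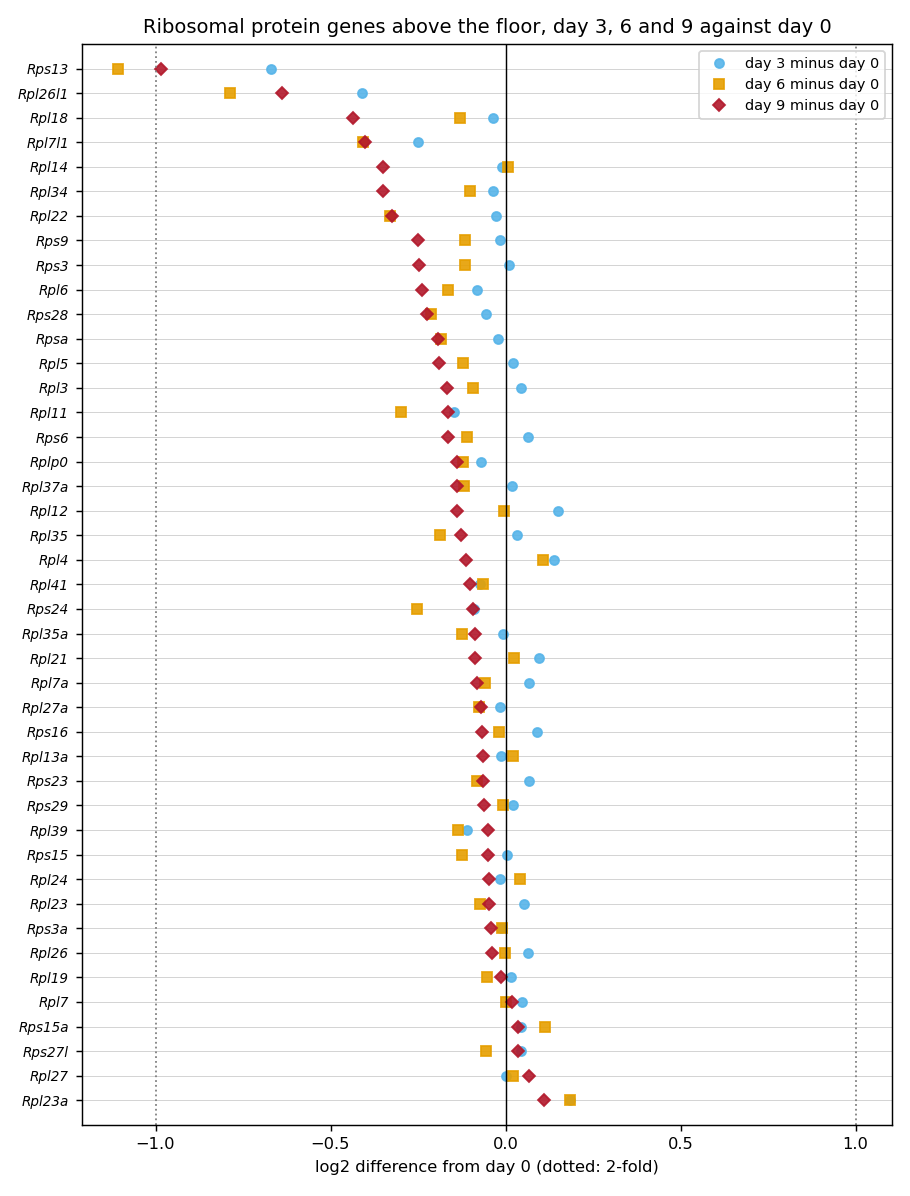
Log2 difference from day 0 (horizontal axis) of the 43 members above the floor (rows, ordered by day 9), with circles for day 3, squares for day 6 and diamonds for day 9 and dotted lines at 2-fold. Rps13 on day 6, at -1.11, is the 1 point beyond a dotted line, and most others lie between -0.25 and 0.25.

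The 2 later arrays held most of the low values. Of 43 members, 24 were lowest on day 9, 16 on day 6, 3 on day 0 and 0 on day 3. The highest array was day 0 for 18 members, day 3 for 19, day 6 for 5 and day 9 for 1. The values of 33 members were below day 0 on both day 6 and day 9, and 18 were below it on all 3 later days. Only 7 were lower at each successive time point. These counts were made for members only, with no share over all genes beside them, so they are not read as particular to the family. Of all genes, 62.7% and 61% were below day 0 on days 6 and 9. From day 3 to day 6 the members' median difference was -0.10, with 35 of 43 (81.4%) below 0. All genes had -0.13 and 65.9% for that step. From day 6 to day 9 the members' median was -0.02, with 26 of 43 (60.5%) below 0, where all genes had 0.05 and 42.1%. Against day 3, the day 9 array had a median of -0.15 and 41 of 43 members below 0, where all genes had a median of -0.07 and 57.5% below 0.

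Both subunits gave medians close to 0. For the 29 large subunit members the median difference from day 0 was -0.01, -0.08 and -0.11 on days 3, 6 and 9, and for the 14 small subunit members it was 0.01, -0.11 and -0.08. On day 9, 26 of the 29 and 12 of the 14 were below 0. The 11 members above the floor with a TOP start had medians of -0.01, -0.12 and -0.13, and the 28 without one had -0.0016, -0.09 and -0.13.

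Among large subunit genes, Rpl18, Rpl14 and Rpl34 had some of the most negative day 9 differences from day 0. Rpl18 read 13.69, 13.65, 13.56 and 13.25 on days 0, 3, 6 and 9, which put day 9 at -0.44 against day 0. Rpl14 read 13.10, 13.09, 13.11 and 12.75, and Rpl34 read 13.59, 13.56, 13.49 and 13.24, so that both were at -0.35 on day 9. In all 3 genes the day 9 array stood apart, and the other arrays lay closer to each other than to it. Rpl22, an RNA-binding subunit needed for T-cell development in the mouse, read 13.05 and 13.03 on days 0 and 3 and 12.72 and 12.73 on days 6 and 9, a step of -0.33 on both later days. Each of these differences was smaller than 1.5-fold.

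Proteins near the exit of the tunnel through which the new chain leaves the ribosome did not move in 1 direction. Rpl23a, part of the docking site for the signal recognition particle, read 13.23, 13.42, 13.42 and 13.34, and its day 0 value was the lowest of the 4. It had the largest positive difference of the 43 members above the floor on each later day, at 0.18, 0.18 and 0.11. Rpl35, its neighbour at that site, was at 0.03, -0.19 and -0.13, and Rpl26 was at 0.07, -0.0007 and -0.04. Rpl39, which lines the tunnel, read near the floor at 6.43, 6.32, 6.30 and 6.38.

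Rpl3, which reaches toward the peptidyl transferase centre, read 13.73, 13.78, 13.64 and 13.56. Rpl4, whose loop extends into the tunnel, read 13.17, 13.31, 13.28 and 13.06, so that its days 3 and 6 were higher and its day 9 was lower than day 0. Rpl19, which takes part in a bridge between the subunits, was among the 3 brightest members with 13.98, 13.99, 13.93 and 13.97. Rpl27, at 13.60, 13.60, 13.62 and 13.66, was the 1 member above the floor whose highest value was on day 9. Rpl7 held between 13.39 and 13.44, and Rpl27a, also among the 3 brightest, between 13.85 and 13.93.

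Rplp0, the anchor of the stalk, read 13.82, 13.74, 13.70 and 13.68, with every later array below day 0 and a difference of -0.14 on day 9. Rpl12, at the base of the stalk, read 13.49, 13.64, 13.49 and 13.36. Rpl5 and Rpl11 bind 5S rRNA and, when ribosome assembly fails, bind and inhibit Mdm2, the ubiquitin ligase of p53. Rpl5 read 13.66, 13.68, 13.54 and 13.47. Rpl11 read 13.43, 13.28, 13.13 and 13.26, with its lowest value on day 6 at -0.30. Neither reached 1.5-fold.

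In the small subunit, Rps6, the substrate of the S6 kinases downstream of mTORC1, read 13.77, 13.83, 13.66 and 13.61. Rps3, at the entry of the mRNA channel, read 13.52, 13.53, 13.40 and 13.27, a day 9 difference of -0.25, and Rps9 was at -0.25 as well. Rpsa, also known as the laminin receptor precursor, read 13.37, 13.35, 13.18 and 13.17. In these genes days 0 and 3 lay together and days 6 and 9 below them. Rps15a read 13.54, 13.58, 13.65 and 13.57, slightly above day 0 on each later day. Rps29, the brightest member, read 14.04, 14.06, 14.04 and 13.98. Rps3a had the smallest range of all members, 0.04.

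Rps13, a small subunit protein that helps bridge the subunits, had the largest difference of the members above the floor. Its probe set read 6.23, 5.56, 5.12 and 5.24 on days 0, 3, 6 and 9, where the other standard small subunit members had probe sets above 13. The differences were -0.67, -1.11 and -0.98, or 0.46 of the day 0 value on day 6 and 0.51 on day 9. All 4 values exceeded the brightest bacterial control, which read 4.19, 4.36, 4.51 and 4.56. Under centring on the median gene the day 6 difference was -0.95, short of 2-fold. Rpl28 and Rpl30, both standard large subunit genes, were also measured by dim probe sets. Rpl28 read 5.20, 4.42, 3.87 and 4.06, which was at least 1.61-fold lower on day 6 and at least 1.56-fold lower on day 9 when the later arrays were bounded by the control. Rpl30, at 3.02 to 3.52, did not exceed the control on any array.

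None of the 6 paralogues was among the bright members. Rpl7l1, a paralogue of Rpl7, read 10.45, 10.20, 10.05 and 10.05, with differences of -0.25, -0.41 and -0.40. Its second probe set read 9.88, 9.48, 9.76 and 9.48, again with each later array below day 0. Rpl26l1, a paralogue of Rpl26, read 6.09, 5.68, 5.30 and 5.45, with differences of -0.41, -0.79 and -0.64. Rps27l, a paralogue that p53 induces in human cells, read 6.67, 6.71, 6.62 and 6.71 and stayed within 0.10 over the 4 arrays. Rpl3l, which in the mouse is a form of striated muscle, read 2.97 to 3.39, and Rpl39l1, a paralogue of Rpl39, read 3.11 to 3.41. Neither exceeded the bacterial control on any array. Rps4y2 exceeded it but stayed below the floor, at 4.90, 5.03, 5.10 and 5.16. Of the pseudogenes, Rps4x-ps1 did not exceed the control, and Rpl37-ps2 exceeded it on day 0 alone.

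Several genes could be followed with more than 1 probe set. For Rpsa there were 3 probe sets, and the others read 13.10, 13.08, 12.75 and 12.80, and 12.22, 12.29, 11.99 and 12.05. On days 6 and 9 every Rpsa set was below day 0. For Rps24, a subunit whose transcript is alternatively spliced, the probe sets parted. The brighter read 13.78, 13.70, 13.53 and 13.69, and the dimmer read 6.97, 7.16, 5.17 and 4.82, with differences of 0.19, -1.80 and -2.15 from day 0. Days 0 and 3 of the dimmer set lay well above days 6 and 9. For Rpl7 the dimmer set went the other way, at 4.40, 4.88, 5.23 and 5.36, a day 9 difference of 0.96 close to the bacterial control. The second sets of Rpl14 and Rpl3 read 4.18 to 4.59 and 7.89 to 8.20, with no step of 1.5-fold. Which transcripts each probe set detects was not analysed here.

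**Figure D4:**
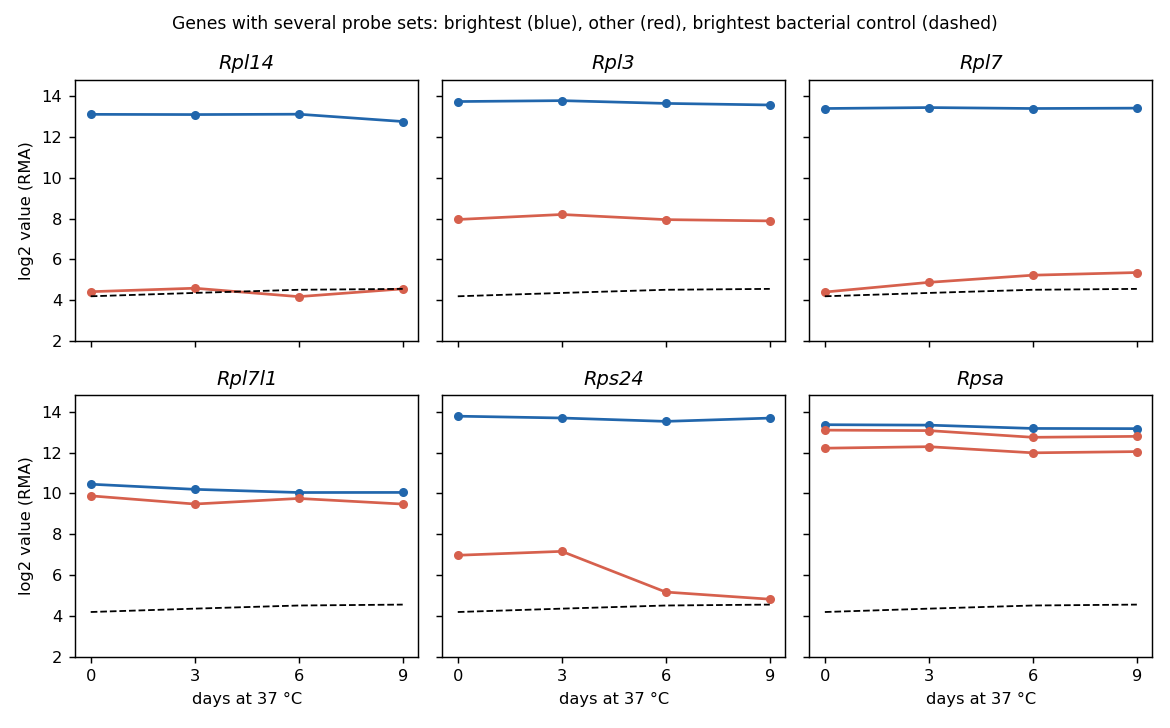
Log2 RMA value (vertical axis) against days at 37 °C (horizontal axis) of every probe set of the 6 member genes that have several, with the brightest set in blue, others in red and the brightest bacterial control dashed. The dimmer set of Rps24 reads 5.17 on day 6 and 7.16 on day 3, while the brighter set stays between 13.53 and 13.78.

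A further 36 probe sets list several entries, at least 1 of them a ribosomal protein, and were kept out of the gene counts. Of these, 32 read 12 or more on every array. Their median level was 13.56, 13.58, 13.52 and 13.48 on days 0, 3, 6 and 9, close to that of the members. Their median difference from day 0 was -0.01, -0.08 and -0.12. The 1 set with values 2-fold or more lower on days 6 and 9 was the dimmest, below the floor throughout. It read 5.29, 4.81, 4.10 and 3.77, under the brightest bacterial control (4.51 and 4.56) on days 6 and 9. Its differences on those days are therefore bounds, which do not reach 2-fold. Rack1, a ribosomal protein of the small subunit that goes by another symbol and is a scaffold for kinases, read 13.42, 13.41, 13.28 and 13.25. Its day 9 difference of -0.16 was within the range of the members.

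Other genes of protein synthesis were read beside the family, by their median and calls over the members of each list above the floor. The list of genes taken as other TOP mRNAs, which encode elongation factors and a few initiation and RNA-binding factors, had 10 of 15 genes above the floor. Of its 7 genes with a promoter window, 0 had a TOP start as read here, and 4 (57.1%) had a run within 10 bases. The 10 genes above the floor had medians of 0.0046, -0.15 and -0.32 on days 3, 6 and 9. All 10 were below day 0 on days 6 and 9, where 62.7% and 61% of all genes were. Only Hnrnpa1, an RNA-binding protein of splicing, was 2-fold lower on days 6 and 9, at 11.25, 10.46, 10.21 and 10.07 on days 0, 3, 6 and 9. Under centring on the median gene its day 6 difference was -0.88. Of all genes, 8.08% and 6.25% were 2-fold lower on days 6 and 9. Eef1d, a nucleotide exchange subunit of elongation factor 1, was at -0.79 on day 9, Eif4b, which stimulates the helicase eIF4A, at -0.67, and Eif3h, a subunit of eIF3, at -0.63. The main elongation factors moved less: Eef1a1 was at -0.14 and Eef2 at -0.03.

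Among initiation factors outside that list, 22 of 25 were above the floor. On each later day 0 of the 22 were 2-fold apart, where 2.15% to 8.08% of all genes were lower and 4.31% to 5.74% higher. The medians of the 22 were -0.08, -0.19 and -0.17, near those of all genes. On day 9 the largest sizes were Eif2s3, a subunit of eIF2 that carries the initiator tRNA, at -0.59, the eIF3 subunits Eif3d at -0.55 and Eif3i at -0.44, and Eif2b4, a subunit of the exchange factor eIF2B, at 0.45. Under centring on the spike-ins, Eif2s3, Eif3d and Eif3i passed 2-fold on day 9, at -1.22, -1.18 and -1.08. The genes listed as chaperones and importers of ribosomal proteins were all above the floor, 12 of 12, with medians of -0.29, -0.46 and -0.49. All 12 were below day 0 on days 6 and 9, where 62.7% and 61% of all genes were. On those days 0 of the 12 reached 2-fold, where 8.08% and 6.25% of all genes were 2-fold lower. The largest day 9 differences were those of the importer Ipo7, at -0.74, Ltv1 of small subunit assembly, at -0.68, Tsr2, the chaperone of Rps26, at -0.65, and Grwd1, the chaperone of Rpl3, at -0.55. Under centring on the spike-ins these 4 passed 2-fold on day 9, at -1.37, -1.32, -1.29 and -1.18.

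The assembly and surveillance genes around 5S rRNA held 6 of 7 genes above the floor, with medians of -0.15, -0.45 and -0.35, which include the members Rpl5 and Rpl11. Rpf2 and Rrs1 bring the 5S particle into the growing large subunit. Rpf2 read 10.06, 9.54, 9.06 and 9.41, just past 2-fold lower on day 6, and it was the 1 call of this list. Under centring on the median gene its day 6 difference was -0.84. Of all genes, 8.08% were 2-fold lower on day 6. Rrs1 read 10.40, 9.95, 9.75 and 9.69, and Mdm2 was at -0.51 on day 9.

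Genes of the mTORC1 branch went both ways, with 14 of 16 above the floor and medians of 0.26, -0.05 and -0.12. Ddit4, an inhibitor of mTORC1 that stress induces, was the 1 gene of the list 2-fold higher on day 3, at 12.06 against 10.69 on day 0, and it read 10.55 on day 9. Sesn2, another inhibitor, read 8.68, 9.41, 9.39 and 9.67, a day 9 difference of 0.99. Eef2k, the kinase that inhibits elongation factor 2, read 6.74, 5.88, 5.43 and 5.62 and was 2-fold lower on days 6 and 9. It passed the floor through the day 0 array alone, so its later values had to be lower. Mlst8, a subunit of both mTOR complexes, read 7.01, 6.39, 5.89 and 6.11 and was 2-fold lower on day 6. Under centring on the median gene its day 6 difference was -0.96. Of all genes, 4.31% were 2-fold higher on day 3, and 8.08% and 6.25% were 2-fold lower on days 6 and 9. Pdcd4, an inhibitor of eIF4A, was at -0.77 on day 9. Larp1 read 10.71, 10.73, 10.71 and 10.61, within 0.11 over the 4 arrays.

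Mitochondrial ribosomal proteins had a lower median difference than the cytosolic family on every later day. Their 73 genes above the floor had medians of -0.13, -0.40 and -0.31 on days 3, 6 and 9, where the cytosolic family had 0.0004, -0.09 and -0.10. Of the 73, 3 were 2-fold lower on day 6, where 8.08% of all genes were, and 0 on days 3 and 9. At 1.5-fold, 4, 24 and 11 of the 73 were lower on days 3, 6 and 9, where 10.0%, 22.9% and 19.6% of all genes were, so the share of the mitochondrial genes was below that of all genes on days 3 and 9 and above it on day 6. Mrpl54 read 11.32, 10.70, 10.09 and 10.85, with -1.23 on day 6 and -0.47 on day 9. Mrps2 was at -1.16 on day 6 and -0.44 on day 9. Mrps15, the third of the 3, read 9.10, 8.67, 8.02 and 8.16, with differences of -1.08 on day 6 and -0.94 on day 9. Its day 6 difference was -0.92 under centring on the median gene and -0.74 as a mean over its probe sets. On day 9 Mrps18c was at -0.93, Mrpl34 at -0.92 and Mrps18b at -0.84. The 2 families were not matched for brightness, whose part in this contrast was not tested. The difference between the families has no test, since each day is 1 array.

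**Figure D5:**
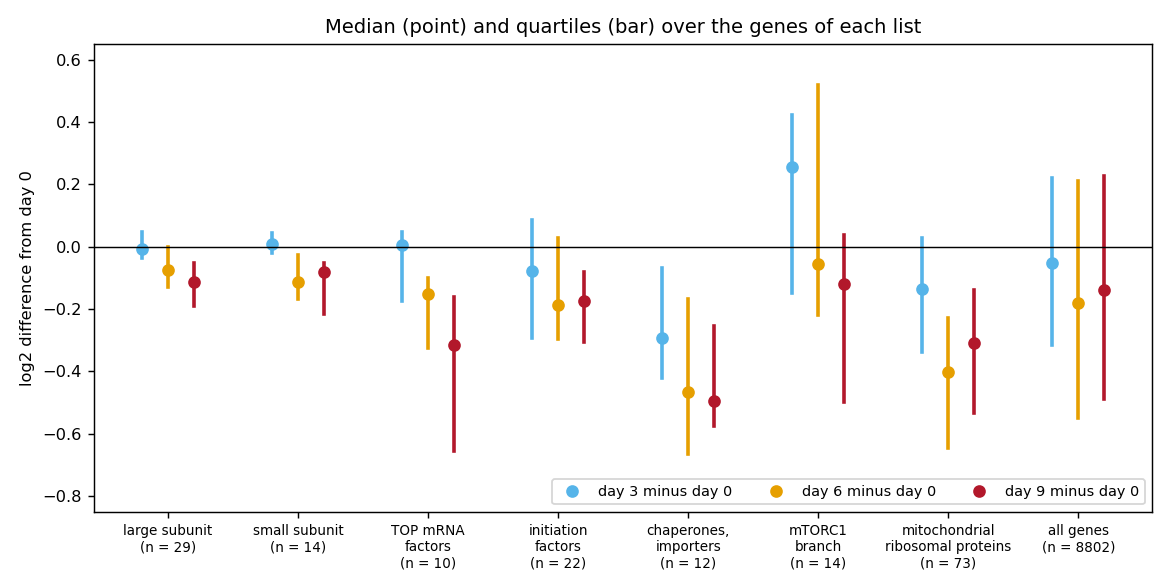
Median (point) and interquartile range (bar) of the log2 difference from day 0 (vertical axis) for each gene list and for all genes above the floor (horizontal axis, n genes below each name), on days 3, 6 and 9. Both cytosolic subunits have short bars and medians between -0.11 and 0.01, and the chaperones and importers have the lowest medians, -0.46 and -0.49 on days 6 and 9.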

How the data were processed

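ROE2 RNA of days 0, 3, 6 and 9 was hybridised to 1 array per day. The authors deposited log2 values per probe set after RMA, as the submitters' processing notes state. The software and its settings are not stated there. All values ran from 1.55 to 14.2, from which a log2 scale was inferred. RMA brings all arrays to a common distribution, which removes most of any shift shared by all genes. Per the labels' protocols, cRNA was synthesised from 500 ng of total RNA, with integrity numbers of 9.5 to 10, by a kit that labels near the 3' end.

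The table has 31099 probe sets, of which the platform annotation gives 1 symbol for 20832, several for 436 and none for 9831, and 0 symbols changed against RefSeq. Each gene was represented by its probe set of highest mean. Signal over background was judged from 27 bacterial control probe sets, and a fold is a bound where an array was at or below the brightest of them. The order of genes by brightness is not read as an order of mRNA abundance, and the number of arrays limits the precision. No test was run. Calls by size were checked on simulated data.

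The members, the lists and the size rule were chosen with earlier results of these data known. By rule the text names, each way, the 6 members farthest from day 0 on day 9 and the 3 farthest on days 3 and 6, the 3 brightest and dimmest members, the paralogues, a fixed set and the 4 largest of each other list on day 9. Ddit4, Larp1, Mrpl54, Mrps2, Eef1a1, Eef2 and the members outside this rule were chosen after their values were seen. Fau is in a probe set with several entries, and Rps19bp1 was not found. Promoter windows are RefSeq's, build GRCr8. Alternatives were other floors, the mean over probe sets, probe sets with no mark of cross-hybridisation, other scalings, other member sets and a threshold of 1.5-fold. Computation used pandas 2.3.3, numpy 2.4.6 and scipy 1.17.1 under Python 3.11.15, and figures matplotlib 3.10.9.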

Additional observations from a re-analysis of the deposited data

Results flagged for a closer look

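A control probe set for 5S rRNA, the RNA that Rpl5 and Rpl11 bind, lies outside the gene comparisons and read above the control day on the last array: 5.61, 4.97, 5.20 and 6.47 on days 0, 3, 6 and 9, a day 9 difference of 0.86 from day 0. Days 3 and 6 were below day 0. It has 1 value per day and no replicate.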

How the results depend on the processing

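The count of members 2-fold or more lower was 1 on day 6 and 0 on day 9. With no floor it was 2 on day 6 and 1 on day 9, the added gene being Rpl28, whose later differences are bounds short of 2-fold. With probe sets of a gene averaged it was also 2 and 1, but the added gene was Rps24, whose dimmer set was at -1.80 and -2.15. It was again 2 and 1 with probe sets that carry no mark of cross-hybridisation, where the added gene was also Rps24, through that same dimmer set. On day 6 it was 0 with a floor of 8, with each array centred on the median gene and among members with a mean of 12 or more, an alternative chosen after seeing the data. Centred on the spike-ins it was 2 on day 6 and 4 on day 9, these 4 being Rps13 at -1.62, Rpl26l1 at -1.27, Rpl18 at -1.07 and Rpl7l1 at -1.04. Rpl18 is a bright member, and the bright cre spike-ins rose by 0.25 to 0.41 on day 9, less than the 0.63 used for centring. At 1.5-fold the count was 1, 2 and 2 on days 3, 6 and 9. No alternative made a member 2-fold higher. The median difference on days 6 and 9 was 0.068 and 0.0059 when centred on the median gene. Centred on the spike-ins it was -0.14, -0.48 and -0.74 on days 3, 6 and 9, where all genes had -0.19, -0.57 and -0.77. Over the 5 members under 13 on all arrays it was -0.25, -0.41 and -0.40, a set that holds Rps13 and Rpl26l1. The other alternatives moved each median by less than 0.1. Of the genes outside the family, Pdcd4 passed 2-fold on day 9 (-1.41) with no mark of cross-hybridisation, Tsr2 on day 6 (-1.08) with probe sets averaged, and Sesn2 on day 9 when centred on the median gene (1.10) or normalized again by quantiles (1.04), where Rpf2 missed it on day 6 (-0.96). Over all named genes, 31 values passed 2-fold when centred on the spike-ins and not as deposited, among them Eef1d (-1.42) and Mdm2 (-1.14) on day 9. The cause of these changes beyond the shift or the set itself was not tested. No paired analysis was possible because each day is 1 array and the labels carry no replicate numbers. Over 3317 genes with several probe sets, their day 9 differences from day 0 spread by a median of 0.51, more than most differences of the members.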
